A study of Mus musculus with 12 samples.

Results

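The inhibitors and feedback regulators of NF-kB were followed through the response of cultured mouse intestinal stroma to lipopolysaccharide (LPS), a cell wall component of Gram-negative bacteria. They were 9 genes, chosen by symbol, of the 23329 genes listed in each count table: Nfkbia, Nfkbib and Nfkbie (classical inhibitors), Nfkbiz, Nfkbid and Bcl3 (nuclear inhibitor family), and Tnfaip3, Tnip1 and Cyld (regulators that act through ubiquitin). All 9 passed the filter on low counts, as did 13038 genes in all. In a model of all 4 groups LPS raised Nfkbia, Nfkbie, Nfkbiz and Tnip1 in E14.5 and adult stroma. With the replicate number as a block in that model 8 members passed in each stage, against 12.5% and 6.2% of all genes. No embryonic member passed when that stage was fitted alone, a fit without the block. Cyld did not differ detectably between LPS and PBS in either stage. No member responded detectably more in one stage than in the other.

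The libraries came from primary stromal cells of the small intestine, labelled intestinal myofibroblast, of mice on the C57BL6/J background, and were poly(A)-selected and strand-specific. The 4 groups were embryonic stroma (E14.5) with LPS, embryonic stroma with PBS, adult stroma with LPS and adult stroma with PBS, with 3 libraries each. LPS was from Escherichia coli O111:B4, labelled as 10 µg/µl for 6 h, and no other agent or allele separated the groups. Each embryonic culture was pooled from 6 embryos, the adult cultures came from 3 mice, whose age in weeks the labels did not give, and all cells were used at passages 2 to 3.

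NF-kB transcription factors rest in the cytoplasm while classical IkB proteins cover the signal that would take them to the nucleus. LPS, through its receptor TLR4, activates IkB kinase, which marks the IkB proteins for destruction and frees NF-kB. Several genes that freed NF-kB switches on encode its own restraints, so that the pathway carries its own brake: new IkB takes NF-kB back out of the nucleus, nuclear IkB proteins change which target genes are read, and ubiquitin-editing enzymes take apart the chains on which the receptor complexes signal. Stromal fibroblasts and resident macrophages of the gut wall both carry this pathway.

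Promoter sequences are shown because this brake is known to act through NF-kB binding sites close to the starts of some of these genes. For 8 of the 9 members the RefSeq table (GRCm38.p6) held at least 1 transcript start, and Nfkbiz was not in it. The 250 bases before each start were searched on both strands for the kB consensus, the degenerate motif of 10 bases that NF-kB dimers bind, and overlapping matches were counted by position. At least 1 match was found in a window of 6 of the 8 members (Nfkbia, Nfkbie, Nfkbid, Tnfaip3, Tnip1 and Cyld), compared with 4.46% of the 27025 genes in the table and 3.90% of its 32851 windows. None of the searched windows of Nfkbib and Bcl3 held those letters. The windows of Nfkbia, the inhibitor with the highest level per length in every group, and of Tnfaip3 are printed from 5′ to 3′ on the strand of the gene, with matches in capitals.
Nfkbia, chr12:55492648-55492897, minus strand: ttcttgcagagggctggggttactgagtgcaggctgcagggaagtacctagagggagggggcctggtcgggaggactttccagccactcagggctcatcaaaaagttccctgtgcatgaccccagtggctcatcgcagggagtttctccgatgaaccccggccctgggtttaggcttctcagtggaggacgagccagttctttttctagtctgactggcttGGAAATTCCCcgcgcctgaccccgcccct
Tnfaip3, chr10:19015411-19015660, minus strand: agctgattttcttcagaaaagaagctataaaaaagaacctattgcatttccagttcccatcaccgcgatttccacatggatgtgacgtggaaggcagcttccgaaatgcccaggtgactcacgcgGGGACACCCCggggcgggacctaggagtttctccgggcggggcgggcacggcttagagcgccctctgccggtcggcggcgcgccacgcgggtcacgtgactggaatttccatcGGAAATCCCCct

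The Nfkbia window held 1 match, GGGAATTTCC on the opposite strand, 29 to 20 bases before the start. The Tnfaip3 window held 2, GGGACACCCC at 125 to 116 bases and GGGGATTTCC on the opposite strand at 12 to 3 bases before the start, and 0.831% of all windows held 2 or more. For the other 4 genes the 30 bases around each match are printed in the same way, to set the members that rose with LPS beside Cyld, which has a match as well. Those of Nfkbid lie before the second of its 3 listed starts, and the 12 capitals of Tnip1 are overlapping matches at 3 positions. The Cyld match lies 155 to 146 bases before its listed start, but it spans the first annotated base of the gene (88696878). It is therefore not wholly upstream of the gene. A match is a description of the letters, and no binding was measured.
Nfkbie, chr17:45555584-45555613, plus strand: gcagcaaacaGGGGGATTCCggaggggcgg
Nfkbid, chr7:30422170-30422199, plus strand: gccccgccctGGGACTTCCCagagcaccac
Nfkbid, chr7:30422215-30422244, plus strand: gggccgaacaGGAATTCCCCgtgcgcgggg
Tnip1, chr11:54962978-54963007, minus strand: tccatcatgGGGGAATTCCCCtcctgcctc
Cyld, chr8:88696863-88696892, plus strand: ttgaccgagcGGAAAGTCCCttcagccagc

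The 12 libraries held between 18850224 and 32672370 counts on genes, and 3 counts, the smallest level taken as detected, corresponded to between 0.0897 and 0.145 CPM, the count scaled to a TMM-adjusted library size. This floor allows for counting error alone. Every member was above that floor in every library. The LPS and PBS libraries that carry 1 replicate number within a stage varied together, and the comparisons of LPS with PBS were therefore also fitted with that number as a block. All 8 stromal markers were detected in every library, with sums between 20787 and 39327 CPM, and the 5 lymphocyte markers together reached at most 0.207 CPM. Macrophage markers had larger sums in every embryonic than in every adult library, between 142 and 1780 CPM against 7.84 to 101 CPM in adult cultures, and their part in the results was not tested. In bulk libraries such as these, fewer cells of a type and less RNA per cell cannot be told apart. By flow cytometry the study reported a larger share of CD45- and CD11b-positive cells in embryonic than in adult stromal cultures.

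Resting levels were compared per length, as CPM per kb of annotated exon. In adult stroma with PBS the order of mean levels was Nfkbia (18.0), Tnip1 (12.6), Nfkbib (8.03), Tnfaip3 (7.38), Cyld (5.70), Nfkbiz (3.42), Nfkbie (2.07), Bcl3 (1.28) and Nfkbid (0.154), and of the neighbours in this order only Nfkbib and Tnfaip3 had overlapping ranges over 3 libraries. In embryonic stroma with PBS the same scale gave Nfkbia 11.5, Tnip1 10.8, Tnfaip3 9.03, Nfkbib 8.08, Cyld 4.96, Nfkbiz 3.22, Nfkbie 1.23, Bcl3 0.756 and Nfkbid 0.534. There the first 4 genes overlapped each with the next, as did Cyld with Nfkbiz and the last 3 with each other in order. Per length, the messages of IkB-alpha (Nfkbia) and of the ubiquitin-binding adaptor Tnip1 thus stood first at rest in both stages. Those of the 3 nuclear inhibitors stood among the last 4.

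With LPS the order per length changed. In embryonic stroma with LPS the means were Nfkbia 222, Tnfaip3 86.8, Nfkbiz 57.8, Tnip1 41.4, Nfkbie 26.0, Nfkbib 22.8, Bcl3 14.52, Cyld 5.72 and Nfkbid 2.10 CPM per kb. In adult stroma with LPS they were Nfkbia 182, Tnfaip3 62.5, Tnip1 62.4, Nfkbiz 29.4, Nfkbie 23.6, Nfkbib 19.9, Bcl3 13.1, Cyld 5.39 and Nfkbid 1.17 CPM per kb. Nfkbia did not overlap the gene below it in either stage, whereas the neighbours from Tnfaip3 to Bcl3 overlapped in embryonic stroma, and so did those from Nfkbiz to Cyld and Tnfaip3 with Tnip1 in adult stroma. Cyld held rank 5 of 9 at rest and rank 8 with LPS in both stages, and Nfkbid remained the lowest.

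**Figure D1:**
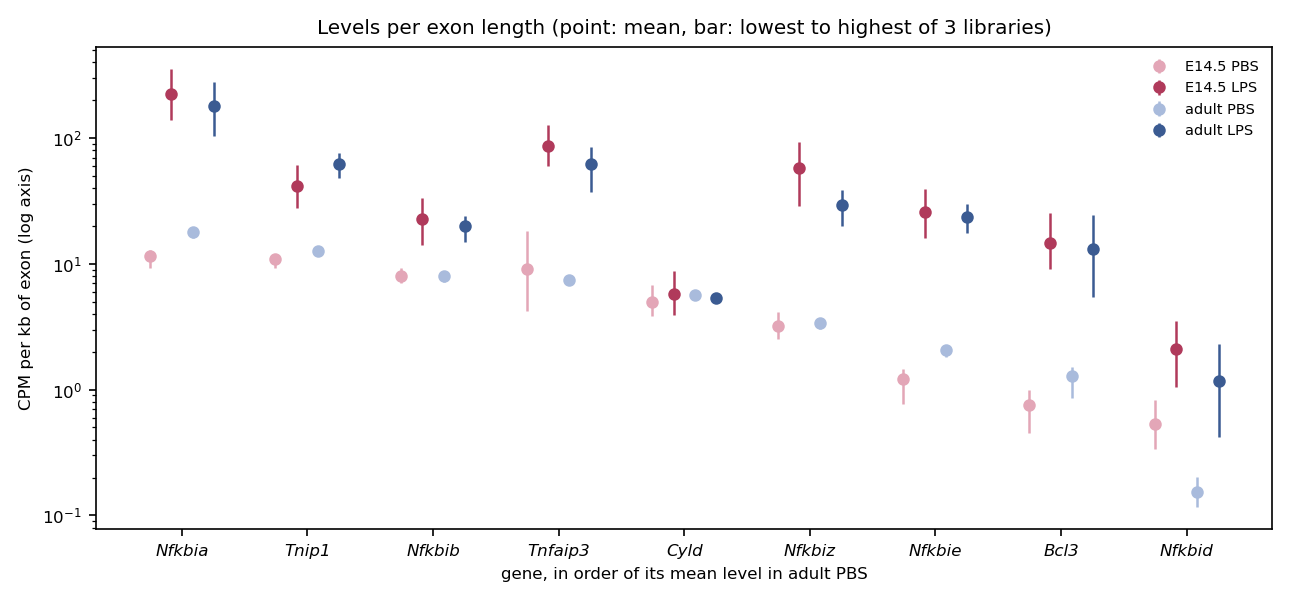
Level of each member per exon length in the 4 groups, on a log axis of CPM per kb of exon (points, mean of 3 libraries; bars, lowest to highest library). With LPS, Nfkbia lies highest at 222 (embryonic) and 182 (adult), and Cyld lies between 4.96 and 5.72 in all 4 groups.

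Among all 9 members, 7 were called in embryonic stroma with LPS in comparison to PBS (edgeR's quasi-likelihood test, p adjusted by Benjamini-Hochberg over 13038 genes and under 0.05), against 2.75% of all genes tested. In adult stroma 4 members were called, against 0.606% of all genes. With the replicate block 8 members were called in each stage, against 12.5% of all genes in embryonic and 6.2% in adult stroma. Every called member was higher with LPS, and Cyld was the 1 member not called in either stage. Over the 9 members the median of the log2 fold change was 3.26 in embryonic and 3.08 in adult stroma, compared with -0.00027 and -0.0075 over all genes. For 8 members every LPS library lay above every PBS library of its stage, in both stages, as they did for 7.58% of all genes in embryonic and 9.1% in adult stroma. With a further limit of at least 2 on the log2 scale 5 embryonic and 4 adult members remained (1.93% and 0.422% of all genes), and 5 and 7 with the block (3.41% and 1.62%).

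The embryonic calls rested on the model of all 4 groups. When only the embryonic libraries were fitted, 0 of the 9 members passed in edgeR's quasi-likelihood test, with adjusted p of at least 0.0729, while 8 had an unadjusted p under 0.05 and 0.0317% of all genes were called. DESeq2's Wald test on the 4 groups called 7, and its share over all genes was not counted. When only the adult libraries were fitted, 6 members passed, against 1.81% of all genes.

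The adult calls rested on few libraries. Without adult PBS replicate 1 or 3 none of the 4 passed, and without adult PBS replicate 2 only Nfkbie did (1 call). In contrast, 7 adult members were called without embryonic LPS replicate 3. All 4 groups shared 1 estimate of the spread in this model, and the cause of these shifts was not tested. In embryonic stroma 4, 6 and 5 members were called without PBS replicate 1, 2 and 3, and 7 without each other library. The share of all genes called was not counted in the fits without a library, so these counts cannot be set against it.

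**Figure D2:**
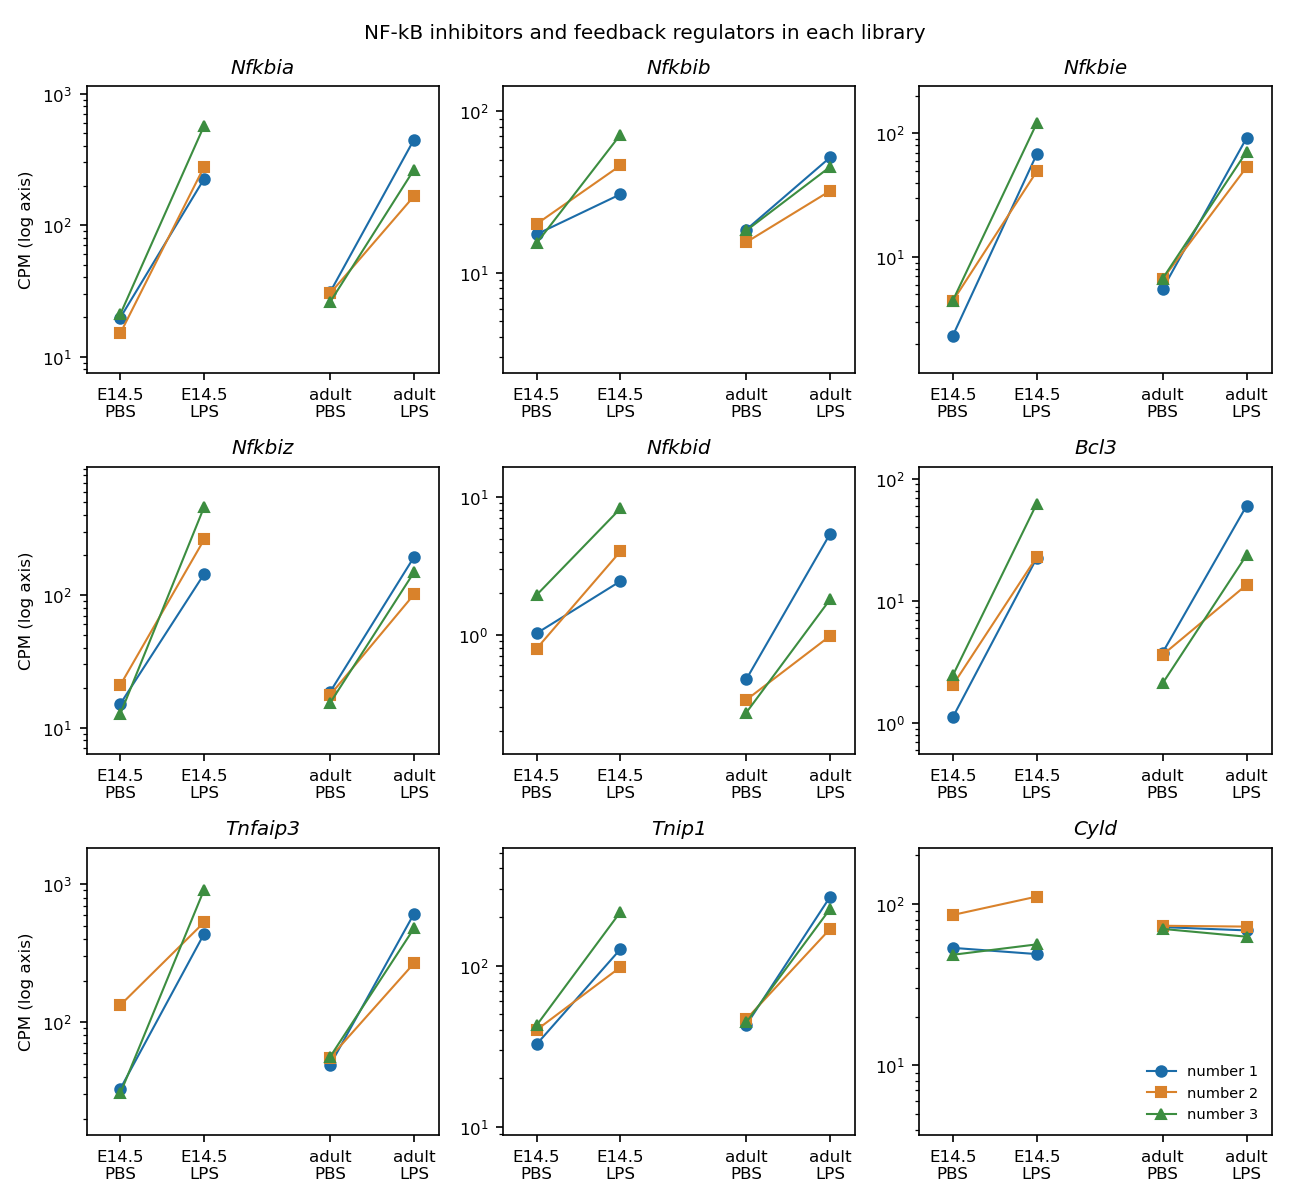
Level of each member in each of the 12 libraries, in CPM on a log axis, with lines joining the PBS and LPS libraries of the same stage and replicate number. For 8 members all LPS libraries lie above all PBS libraries of the stage; for Cyld they overlap, and embryonic PBS number 2 lies high for Tnfaip3 (133 CPM).

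The classical inhibitors Nfkbia, Nfkbib and Nfkbie encode IkB-alpha, IkB-beta and IkB-epsilon, which hold NF-kB in the cytoplasm. Nfkbia, on chromosome 12 (55489409 to 55492647), stood at 19.7, 15.0 and 20.9 CPM in embryonic PBS libraries 1 to 3 and at 225, 278 and 571 CPM in embryonic LPS libraries 1 to 3. In adult stroma it stood at 30.8, 30.2 and 25.9 CPM with PBS and 447, 166 and 264 CPM with LPS. The groups were far apart in each stage, and the spread among LPS libraries was wider than among PBS libraries (coefficient of variation 52.0% against 16.9% in embryonic and 48.7% against 9.19% in adult stroma). The log2 fold change was 4.27 (SE, the standard error, 0.44; adjusted p = 0.00162, edgeR) in embryonic stroma, a 19.3-fold rise, and 3.33 (SE 0.42, adjusted p = 0.00965, edgeR) in adult stroma, a 10.1-fold rise.

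Nfkbie, whose protein restrains mainly dimers that hold RelA or c-Rel, lies on chromosome 17 (45555700 to 45563169). It was near the bottom of the range at rest, with 2.32, 4.42 and 4.46 CPM in embryonic and 5.53, 6.65 and 6.72 CPM in adult PBS libraries. With LPS it reached 67.8, 49.3 and 121 CPM in embryonic and 91.6, 53.3 and 71.0 CPM in adult libraries. Its log2 fold change was 4.41 (SE 0.40, adjusted p = 0.000916, edgeR) in embryonic and 3.51 (SE 0.38, adjusted p = 0.00683, edgeR) in adult stroma.

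Nfkbib, on chromosome 7 (28758251 to 28766644), encodes the inhibitor known for slower turnover. Its levels were 17.3, 20.0 and 15.2 CPM with PBS and 30.6, 46.2 and 71.8 CPM with LPS in embryonic stroma. In adult stroma they were 18.5, 15.5 and 18.3 CPM with PBS and 51.9, 32.2 and 45.4 CPM with LPS. Although the groups did not overlap, the change was the smallest of the 3 classical inhibitors, with a log2 fold change of 1.50 (SE 0.29, adjusted p = 0.0204, edgeR) in embryonic and 1.31 (SE 0.28, adjusted p = 0.0897, edgeR) in adult stroma. With the replicate number as a block the adult value also passed (log2 fold change 1.29, adjusted p = 0.0191, edgeR). The embryonic call was lost without any 1 of the 3 embryonic PBS libraries (adjusted p = 0.105, 0.0510 and 0.0822 without replicates 1, 2 and 3, edgeR), and the adult value passed without embryonic LPS replicate 1 (0.0377) or 3 (0.0219). Nfkbib overlaps Sirt2 and Ccer2 on the other strand, and reads were counted by strand.

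The nuclear inhibitors Nfkbiz, Nfkbid and Bcl3 encode IkB-zeta, IkB-NS and Bcl-3, which bind NF-kB in the nucleus and can restrain or assist it, depending on the target gene. Nfkbiz, on chromosome 16 (55811375 to 55838954), had 15.0, 20.9 and 12.6 CPM with PBS and 144, 263 and 463 CPM with LPS in embryonic stroma. In adult stroma it had 18.5, 17.6 and 15.3 CPM with PBS and 193, 101 and 148 CPM with LPS. Resting levels were thus alike in range, and the highest level with LPS was in embryonic library 3. The log2 fold change was 4.16 (SE 0.43, adjusted p = 0.00162, edgeR) in embryonic and 3.11 (SE 0.41, adjusted p = 0.0101, edgeR) in adult stroma.

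Bcl3, on chromosome 7 (19808462 to 19822824), had 1.12, 2.04 and 2.45 CPM with PBS and 22.4, 22.9 and 62.5 CPM with LPS in embryonic stroma, a log2 fold change of 4.26 (SE 0.66, adjusted p = 0.00863, edgeR). In adult stroma it had 3.77, 3.61 and 2.11 CPM with PBS and 60.1, 13.5 and 23.7 CPM with LPS. The adult LPS libraries were more uneven than for any other member but Nfkbid (coefficient of variation 75.4%), and the adult log2 fold change of 3.36 (SE 0.63, adjusted p = 0.0512, edgeR) did not pass, whereas that with the block did (3.18, adjusted p = 0.00288, edgeR). It also passed without adult LPS replicate 2 (adjusted p = 0.0294, edgeR) or embryonic LPS replicate 3 (0.0234), and the embryonic call was lost without embryonic PBS replicate 1 (0.0577). Without adult LPS replicate 1 the adult log2 fold change of Bcl3 was 2.55, and without embryonic LPS replicate 3 the embryonic one was 3.57. The annotation places the antisense genes Gm16174 and Gm16175 within Bcl3.

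Nfkbid, on chromosome 7 (30421731 to 30428749), was the rarest member. It had 1.02, 0.793 and 1.94 CPM with PBS and 2.45, 4.04 and 8.27 CPM with LPS in embryonic stroma, while adult stroma had 0.476, 0.337 and 0.273 CPM with PBS and 5.44, 0.984 and 1.81 CPM with LPS. The LPS libraries lay above the PBS libraries of the same stage, but 2 adult LPS libraries (0.984 and 1.81) lay below embryonic PBS library 3 (1.94). Log2 fold changes of 1.97 (SE 0.66, adjusted p = 0.219, edgeR) in embryonic and 2.91 (SE 0.72, adjusted p = 0.153, edgeR) in adult stroma did not pass, and they were 1.33 without embryonic LPS replicate 3 and 1.93 without adult LPS replicate 1. In the blocked model both did, at 1.91 (adjusted p = 0.00680, edgeR) and 2.79 (adjusted p = 0.00641, edgeR).

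Tnfaip3, Tnip1 and Cyld act on the ubiquitin chains of the signalling complexes. Tnfaip3, on chromosome 10 (19000910 to 19015410), encodes an enzyme that edits such chains, and mice without it develop severe inflammation. It had 32.7, 133 and 30.4 CPM with PBS and 437, 530 and 914 CPM with LPS in embryonic stroma, while adult stroma had 48.8, 55.3 and 55.9 CPM with PBS and 610, 267 and 478 CPM with LPS. Embryonic PBS library 2 stood apart from the other two at more than any adult PBS level, and the coefficient of variation of that group was 89.4%, compared with 7.35% in adult PBS. The log2 fold change was 3.26 (SE 0.59, adjusted p = 0.0171, edgeR) in embryonic and 3.08 (SE 0.59, adjusted p = 0.0520, edgeR) in adult stroma. With the replicate block the values were 3.55 (adjusted p = 0.00456, edgeR) and 3.01 (adjusted p = 0.0135, edgeR), both past the threshold.

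For Tnfaip3 single libraries moved the call in both stages, and the embryonic log2 fold change was 4.32 without embryonic PBS replicate 2. The embryonic call was lost without embryonic PBS replicate 1 (adjusted p = 0.0788, edgeR) or 3 (0.0518), and the adult value passed without embryonic PBS replicate 2 (0.00885), embryonic PBS replicate 3 (0.0407) or embryonic LPS replicate 3 (0.0397). Within pairs of the same number the embryonic LPS minus PBS difference was 3.74, 2.00 and 4.91 in log2 CPM, lowest in pair 2, where PBS was high, and the adult one was 3.64, 2.27 and 3.09.

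Tnip1, on chromosome 11 (54910787 to 54962956), encodes an adaptor that binds ubiquitin chains and brings the Tnfaip3 protein to them. It had 32.5, 39.9 and 42.6 CPM with PBS and 127, 97.9 and 215 CPM with LPS in embryonic stroma, while adult stroma had 42.9, 46.6 and 44.6 CPM with PBS and 268, 169 and 225 CPM with LPS. It was the member whose mean level with LPS was higher in adult (221 ± 49.4, SD, n = 3) than in embryonic stroma (147 ± 61.2, SD, n = 3). The log2 fold change was 1.93 (SE 0.27, adjusted p = 0.00578, edgeR) in embryonic and 2.30 (SE 0.28, adjusted p = 0.00683, edgeR) in adult stroma, a 3.82-fold and a 4.94-fold rise.

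Cyld, on chromosome 8 (88696878 to 88751946), encodes the enzyme that removes ubiquitin chains from several components upstream of IkB kinase. It had 53.4, 85.4 and 48.4 CPM with PBS and 48.9, 111 and 56.1 CPM with LPS in embryonic stroma, while adult stroma had 71.8, 73.2 and 70.0 CPM with PBS and 68.5, 72.3 and 62.6 CPM with LPS. Embryonic culture 2 was highest with either treatment, and the LPS and PBS groups overlapped in both stages. The log2 fold change was 0.21 (95% interval -0.45 to 0.86, adjusted p = 0.999, edgeR) in embryonic and -0.08 (95% interval -0.74 to 0.58, adjusted p = 1.00, edgeR) in adult stroma. With the replicate number as a block the intervals narrowed to -0.07 to 0.38 and -0.31 to 0.15, which leave room for a rise of at most 1.31-fold in embryonic and 1.11-fold in adult stroma at that confidence. The 7 members called in embryonic stroma had lower bounds of at least 1.82-fold in the model without the block.

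**Figure D3:**
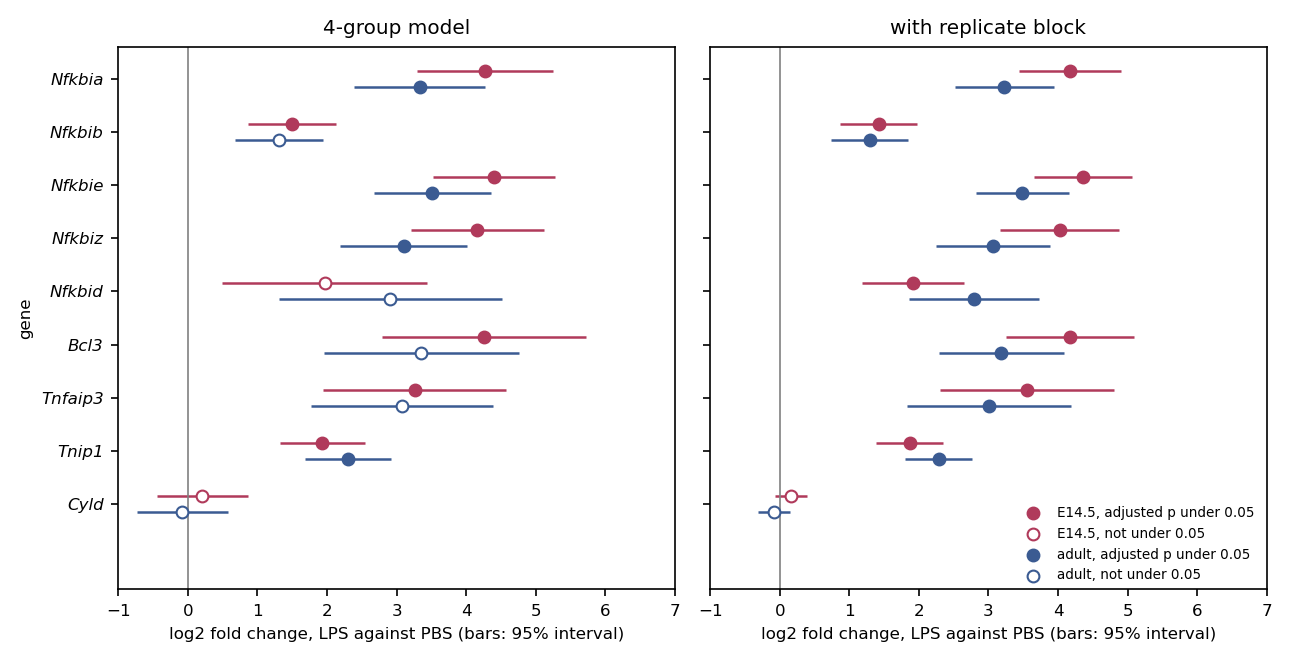
Log2 fold change of each member with LPS in comparison to PBS in embryonic (E14.5) and adult stroma, from the model of the 4 groups (left) and with the replicate number as a block (right). Points are estimates, bars are 95% intervals, and filled points have an adjusted p under 0.05; 7 embryonic and 4 adult points are filled on the left, and 8 of each on the right.

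The question of whether embryonic stroma responds more strongly than adult stroma was put to each member by the interaction of stage and LPS. The estimated response was larger in embryonic stroma for 7 members and in adult stroma for Nfkbid and Tnip1, and none of these differences passed (0 called, against 0% of all genes; with the block 0 called, against 0.844% of all genes; DESeq2's Wald test called 0, as it did in both comparisons of the stages). No member had an unadjusted p under 0.05 without the block (2.25% of all genes), and 1, Nfkbia, had with it (8.92%). The embryonic response exceeded the adult one by 0.94 on the log2 scale for Nfkbia (95% interval -0.28 to 2.16), 0.89 for Nfkbie (-0.20 to 1.99), 1.06 for Nfkbiz (-0.14 to 2.25) and 0.90 for Bcl3 (-0.94 to 2.75). These 4 differences lay close together, but each interval included 0. They also depended on the culture, in fits chosen after seeing the data. Without both libraries of embryonic culture 3 they were 0.50, 0.59, 0.36 and 0.46 in the same order of genes. Without both libraries of embryonic culture 2 they were 0.96, 1.28, 1.35 and 1.21.

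The remaining differences of the responses were 0.19 for Nfkbib (95% interval -0.69 to 1.07), 0.18 for Tnfaip3 (-1.53 to 1.89), 0.29 for Cyld (-0.64 to 1.21), -0.37 for Tnip1 (-1.20 to 0.46) and -0.94 for Nfkbid (-3.03 to 1.15). In the blocked model Nfkbia was nearest to the threshold, at 0.94 (95% interval 0.0035 to 1.88) with an unadjusted p of 0.0493 and an adjusted p of 0.556 in edgeR's quasi-likelihood test. For all 9 members the pair differences of the stages overlapped, as they did for all but 15.5% of genes.

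**Figure D4:**
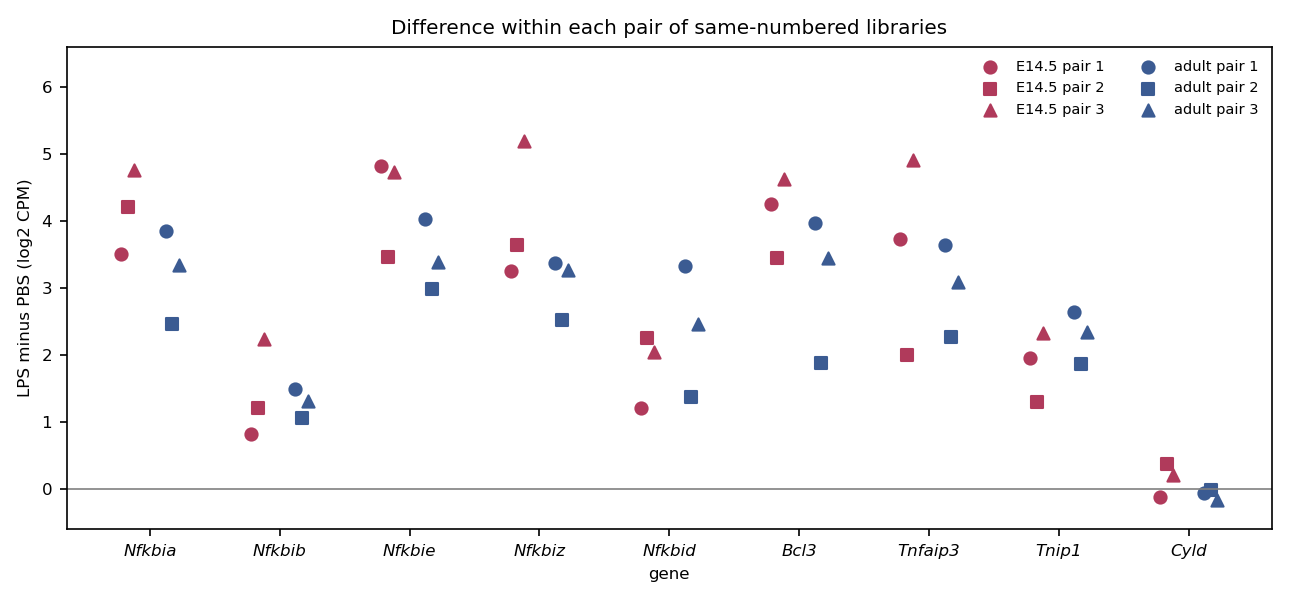
Difference of LPS and PBS in log2 CPM for each pair of libraries with the same stage and replicate number. Embryonic pair 3 is highest for Nfkbia (4.77), Nfkbiz (5.19) and Tnfaip3 (4.91), adult pair 2 is lowest in adult stroma for all members but Cyld, and the Cyld pairs lie between -0.16 and 0.38.

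Comparison of the stages under the same treatment asked whether embryonic stroma carries less of these restraints. With PBS none of the 9 was called, against 4.08% of all genes, and 1, Nfkbid, had an unadjusted p under 0.05, against 19.8% (edgeR's quasi-likelihood test). The level in embryonic stroma relative to adult stroma was -0.64 on the log2 scale for Nfkbia (95% interval -1.51 to 0.22), -0.75 for Nfkbie (-1.55 to 0.04), -0.76 for Bcl3 (-2.10 to 0.59) and -0.22 for Tnip1 (-0.81 to 0.37). For Nfkbid it was 1.78 (0.20 to 3.36, adjusted p = 0.196, edgeR). The libraries of the stages did not overlap with PBS for Nfkbia, Nfkbie and Tnip1, all lower in embryonic stroma, and for Nfkbid, higher in embryonic stroma, compared with 24.3% of all genes. For Nfkbib, Nfkbiz, Tnfaip3 and Cyld the log2 differences lay between -0.20 and 0.29. Without both libraries of embryonic culture 2, the difference of Cyld with PBS was -0.50 (adjusted p = 0.0223, edgeR) and that of Tnfaip3 -0.76 (adjusted p = 0.253, edgeR). That culture was left out after it was seen to be high for Tnfaip3 and Cyld, which lowers their embryonic means by construction. The p-value of Cyld is therefore no test of a stage difference. With all libraries the difference of Cyld was -0.20 (adjusted p = 0.792, edgeR).

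With LPS none of the 9 was called between the stages, against 5.31% of all genes, and 2 had an unadjusted p under 0.05, against 22% (edgeR's quasi-likelihood test). Nfkbiz was higher in embryonic stroma by 0.97 on the log2 scale (95% interval 0.13 to 1.82, adjusted p = 0.167, edgeR), and the difference of Tnip1 was -0.59 (-1.18 to -0.0037, adjusted p = 0.224, edgeR). The other 7 lay between 0.09 and 0.84. For all 9 members the embryonic and adult LPS libraries overlapped, whereas those of 25.1% of all genes did not, although 8 had their highest group mean in embryonic stroma with LPS and Tnip1 had it in adult stroma with LPS among the 4 groups by CPM. Without embryonic LPS replicate 3, Tnip1 was lower in embryonic stroma by this test (log2 difference -0.99, adjusted p = 0.0446, edgeR).

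The restraints were set beside 37 other genes of the pathway, listed by role, all of which passed the filter. Of these, 14 rose with LPS in embryonic and 8 in adult stroma, and none fell (edgeR's quasi-likelihood test, adjusted p under 0.05). Of all genes 2.67% were called higher and 0.0767% lower in embryonic stroma, and 0.598% higher and 0.00767% lower in adult stroma. With the replicate block 18 and 11 rose, against 9.43% and 4.69% of all genes. When only the libraries of a stage were fitted, without the block, 1 embryonic and 10 adult genes of the 37 passed, against 0.0317% and 1.81% of all genes. Among the 37 the median log2 fold change was 0.36 in embryonic and 0.28 in adult stroma, in comparison to 3.26 and 3.08 for the 9 members. Without adult PBS replicate 1, 2 or 3 the adult count was 1, 1 or 0, and without adult LPS replicate 1 or 3 it was 5. Without embryonic PBS replicate 1 or 2 the embryonic count was 7 or 9. For these fits the share of all genes called was not counted.

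The 5 subunits, which form the NF-kB dimers that the members restrain, all rose in embryonic stroma, and all but Rel (c-Rel) rose in adult stroma. Relb, a partner in the alternative branch of the pathway, stood at 9.01, 14.8 and 10.8 CPM in embryonic PBS and 72.2, 61.0 and 93.4 CPM in embryonic LPS libraries. Its log2 fold change was 2.71 (adjusted p = 0.0019, edgeR) in embryonic and 2.05 (adjusted p = 0.0128, edgeR) in adult stroma. Nfkb2, whose precursor protein also has the ankyrin repeats of an inhibitor, had log2 fold changes of 2.54 (adjusted p = 0.00227, edgeR) and 2.15 (adjusted p = 0.0101, edgeR).

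Of the 10 kinases and scaffolds that act upstream of IkB destruction, 1 rose in embryonic stroma and none in adult stroma, where 1 had an unadjusted p under 0.05, against 5.58% of all genes (edgeR's quasi-likelihood test). The riser was Ikbke, an IkB kinase relative of the interferon branch, with a log2 fold change of 2.82 (adjusted p = 0.0102, edgeR) in embryonic and 1.87 (adjusted p = 0.131, edgeR) in adult stroma. With the replicate number as a block 2 rose in embryonic and 1, Ikbke, in adult stroma (log2 fold change 1.88, adjusted p = 0.000521, edgeR). The genes of the canonical IkB kinase complex, Chuk, Ikbkb and Ikbkg, had log2 fold changes of -0.07, 0.71 and 0.09 in embryonic and -0.12, 0.39 and -0.07 in adult stroma, none past the threshold without the block.

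Of the 9 ubiquitin ligases and adaptors, 5 rose in embryonic and 3 in adult stroma. Traf1, an adaptor of TNF receptor signalling, was almost absent from embryonic PBS libraries, with 1, 6 and 5 counts, and reached 340, 850 and 2307 counts with LPS (11.9, 29.4 and 89.6 CPM). The fitted log2 fold change of 8.45 against a group near the floor depends on the prior count. Its adult values were 0, 1.59 and 0.716 CPM with PBS and 4.82, 7.01 and 5.62 CPM with LPS, a change that passed with the block only (adjusted p = 0.472 without and 0.0138 with it, edgeR). Birc3, a ligase of the TNF receptor complex, had log2 fold changes of 3.405 (adjusted p = 0.000916, edgeR) in embryonic and 2.45 (adjusted p = 0.00683, edgeR) in adult stroma.

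Of 13 further genes known to restrain the pathway, 3 rose in embryonic stroma (Tnip3, Zc3h12a and N4bp1) and 1 in adult stroma (Zc3h12a). Otulin, which shortens linear ubiquitin chains, was counted under its older symbol Fam105b, with log2 fold changes of -0.05 and 0.02. Zc3h12a, an RNase that degrades inflammatory messages, stood at 7.02, 10.1 and 6.97 CPM with PBS and 97.4, 115 and 153 CPM with LPS in embryonic stroma. Its log2 fold change was 3.92 (adjusted p = 0.00227, edgeR) there and 3.83 (adjusted p = 0.00683, edgeR) in adult stroma. Tnip3, a relative of Tnip1, had log2 fold changes of 4.64 (adjusted p = 0.0069, edgeR) and 3.54 (adjusted p = 0.0520, edgeR), the latter past the threshold with the block (3.56, adjusted p = 0.000536, edgeR). Of the 37 genes none was called for a difference between the stages' responses, with or without the block, and 4 and 6 had an unadjusted p under 0.05, against 2.25% and 8.92% of all genes (edgeR's quasi-likelihood test). Among the restraints a few strongly inducible genes thus stood beside many with fold changes near 0, as Cyld does among the 9 members.

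**Figure D5:**
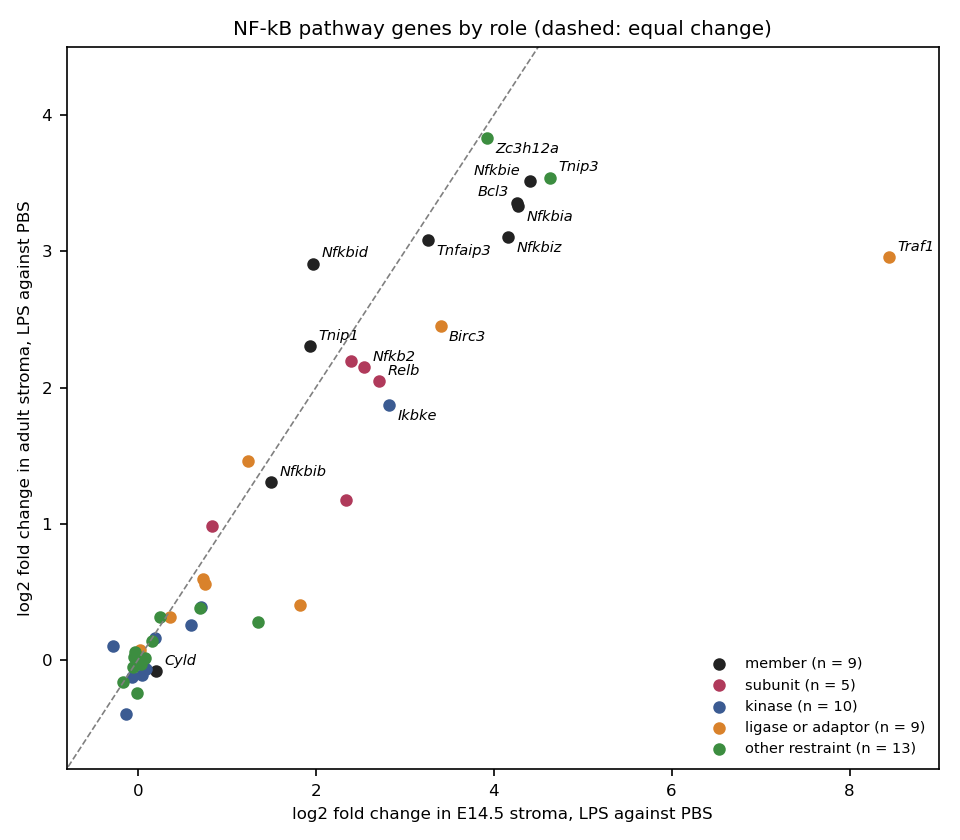
Log2 fold change with LPS in embryonic stroma (x axis) and adult stroma (y axis) for the 9 members and 37 other pathway genes by role, with a dashed line of equal change. Nfkbia, Nfkbie, Nfkbiz and Bcl3 lie below the line, Nfkbid and Tnip1 above it, and Traf1 lies farthest to the right at 8.45 against 2.96.

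The pattern of a gene over the 12 libraries was compared with others by the root mean square difference of log2 CPM, after centring each gene on its own mean. Among the members the closest pair was Nfkbia and Bcl3 (0.35), followed by Nfkbia and Nfkbie (0.38) and Nfkbia and Nfkbiz (0.41). The pair farthest apart was Nfkbie and Cyld (2.02). Outside the members the genes nearest to Nfkbia were Stx11 (0.42), Map3k8 (0.45) and Zc3h12a (0.48), with a median of 1.94 over all tested genes. Those nearest to Nfkbiz were Birc3 (0.45), Ch25h (0.49) and Slc2a6 (0.51), with a median of 1.88. For Tnfaip3 they were Tnfaip2 (0.39), Birc3 (0.47) and Ch25h (0.49), with a median of 1.78, and Nfkbiz was its nearest fellow member (0.44). The points share the 12 libraries, and with them culture and depth.

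The level of the members with LPS followed the order of the libraries by their macrophage marker sum in several cases. The 10 macrophage markers, among them Csf1r, C1qa and Adgre1 (counted as Emr1), had counts in every library, and all 10 were above the floor of 3 counts in 11 libraries and 9 in adult LPS library 2. Their summed level was 170, 278 and 1780 CPM in embryonic PBS and 142, 729 and 1509 CPM in embryonic LPS libraries 1 to 3, and 89.8, 8.53 and 24.1 CPM in adult PBS and 101, 7.84 and 27.9 CPM in adult LPS libraries. Every embryonic sum was above every adult sum, and the median log2 difference of the stages over the 10 markers was 4.37 with PBS and 4.21 with LPS. None of the 10 was called between the stages with either treatment without the block (adjusted p = 0.0555 to 0.180, edgeR). Nor was any called between LPS and PBS without the block (edgeR's quasi-likelihood test), and with it 3 were higher with LPS in embryonic stroma and none changed in adult stroma.

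In embryonic LPS libraries the order of the macrophage sum was 3, 2, 1, and 6 of the 9 members had their levels in that order, against 13.4% of all genes. In adult LPS libraries it was 1, 3, 2, and 8 members had that order (all but Cyld), against 26.7% of all genes. Endothelial markers had the opposite order in adult cultures. Their sums were 13.9, 1708 and 348 CPM in adult LPS libraries 1 to 3 (19.5, 1773 and 374 CPM with PBS). In embryonic LPS libraries 1 to 3 endothelial sums also had the opposite order (34.5, 30.8 and 27.5 CPM). Stromal sums in adult LPS libraries had the same order as the macrophage sum (39250, 22069 and 38778 CPM). The 8 adult members thus followed the stromal order as well. In embryonic LPS libraries stromal sums had another order (39327, 20787 and 37382 CPM), and they were lowest in culture 2 of either stage with LPS. In adult culture 2, where the macrophage sum was 8.53 CPM with PBS and 7.84 CPM with LPS, the LPS minus PBS difference was 2.46 in log2 CPM for Nfkbia, 2.99 for Nfkbie and 2.27 for Tnfaip3. The part of macrophages and of the other cell types in the differences between libraries and stages was not tested.

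When both libraries of embryonic culture 3, the richest in macrophage markers, were left out, a choice made after seeing the data, 5 members were called in embryonic and 7 in adult stroma, and the embryonic log2 fold change was 1.01 for Nfkbib and 2.52 for Tnfaip3, neither past the threshold (adjusted p = 0.136 and 0.110, edgeR), and 3.47 for Nfkbiz (adjusted p = 0.00244, edgeR). In the blocked model 8 were called in each stage without that culture. The estimated difference of the stages with LPS then turned from positive to negative for Nfkbia (-0.25), Nfkbib (-0.21), Nfkbie (-0.32) and Bcl3 (-0.55), none past the threshold, and that of Tnip1 was -1.005 (adjusted p = 0.0383, edgeR). Without adult culture 1, the richest of the adult cultures, 5 embryonic and 0 adult members were called, and with the block 8 and 5. Without adult culture 2, the richest in endothelial markers, 7 and 2 were called, and 8 and 7 with the block. The share of all genes called was not counted in the fits without a culture, so these counts cannot be set against it.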

How the data were processed

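Poly(A)-selected, stranded single-end RNA-seq of stromal cultures was analysed, with 12 libraries, 3 in each of 4 groups. Before deposit the authors trimmed the reads, mapped them with STAR to GRCm38.p6 (mm10), allowing at most 1 mismatch and keeping uniquely mapped reads. The deposited values are raw counts per gene symbol, in columns for either strand and for each strand. The column of the gene's own strand was used, as the libraries were stranded, and the opposite strand held 1.14% to 1.98% of gene counts. Unassigned rows were left out (no feature, 7.49% to 8.38% of rows summed). Groups and replicate numbers came from the sample labels.

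Differences were tested with edgeR 4.0.16 under R 4.3.3 (DESeq2 1.42.0 as an alternative): TMM normalization, genes with a CPM above 0.5 in all libraries of a group, and the quasi-likelihood test in a model of the 4 groups, with Benjamini-Hochberg adjustment over 13038 genes and calls at an adjusted p under 0.05. The study's text names edgeR and no block. The standard error is the absolute log2 fold change divided by the square root of F. Values of log2 CPM used a prior count of 2. Without the block, p-values measure the spread between cultures. In comparisons of LPS with PBS and in the interaction, those with the block measure how the LPS minus PBS difference varies between cultures. Within each stage, LPS and PBS libraries were taken as paired by replicate number, since those of the same number in the labels deviated together (correlations of 0.710 to 0.784 in embryonic and 0.610 to 0.850 in adult stroma, across genes). Any 2 libraries of a group differed by more than counting noise. The tests were run on simulated libraries in which 200 genes changed. Those libraries were drawn independently, without culture effects and with the smaller spread estimated with the block. They therefore cannot show how the test without the block behaves under the spread of the real libraries.

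Exon lengths came from GENCODE vM21, and gene positions and promoters from RefSeq. The members, pathway lists, markers and tests were chosen with earlier results of these data known. All 9 members were named in every comparison; of each pathway role the 2 called genes with the largest change were named, Nfkb1 excepted, with the canonical kinase genes, Rel, N4bp1 and Otulin added after their values were seen. Alternatives are given in the closing section. Figures were drawn with matplotlib 3.10.9.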

Additional observations from a re-analysis of the deposited data

Results flagged for a closer look

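Reads on the strand opposite to the gene entered no comparison, and 4 members (Nfkbia, Nfkbiz, Bcl3 and Tnip1) had more of them in CPM in every LPS library than in every PBS library of the same stage, in both stages. These reads made up between 0.131% and 1.47% of all reads of Nfkbia, at most 1.02% of those of Nfkbiz, at most 2.79% of those of Bcl3 and between 0.660% and 2.41% of those of Tnip1. For Nfkbia they numbered 1 to 5 in PBS libraries and 21 to 168 in LPS libraries. How many of all genes had this order was not counted. The own-strand counts of these 4 members rose with LPS as well, and over all genes the opposite strand held 1.14% to 1.98% of counts. Whether the opposite reads only followed the own-strand reads was not tested. No transcript on the opposite strand of Nfkbia, Nfkbiz or Tnip1 other than a pseudogene in Tnip1 was in the GENCODE annotation. The annotation used for the counts was not searched, and it may hold other features there. For Nfkbia the count over either strand was lower than that of its own strand in all 12 libraries, and the reason could not be checked. Outliers were not sought, since each group held 3 libraries, and no difference between the stages' responses passed its test.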

How the results depend on the processing

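The 8 inducible members kept a positive response in both stages in every alternative tried. When the model held only the groups compared, without the block, 0 embryonic members and 1 embryonic pathway gene passed. The replicate block and the DESeq2 Wald test each called 8 adult members, in place of 4. At an adjusted p under 0.01 the pathway counts fell to 8 (embryonic) and 2 (adult), and with a log2 limit of at least 2 to 9 and 5. The cause of these shifts was not tested beyond the stricter limits themselves.

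Leaving out 1 library at a time gave 4 to 7 members in embryonic and 0 to 7 in adult stroma, 0 to 1 between the stages with LPS and 0 to 0 with PBS, and 7 to 15 and 0 to 10 pathway genes. The following were chosen after seeing the data. Without embryonic culture 3, 7 adult members (8 with the block), 1 member between the stages with LPS, 9 embryonic and, with the block, 16 adult pathway genes were called. Without embryonic culture 2, 8 adult members were called with the block and 1 between the stages with PBS. Without adult culture 2 the adult members were 2 (7 with the block) and the pathway genes 9 and 1, and without adult culture 1 they were 0, 9 and 0. The log2 limit together with the block gave 7 adult members and 9 embryonic pathway genes. For DESeq2 and for the fits with libraries left out, the share of all genes called was not counted.

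None of the estimates that turned sign had passed a test. Over single libraries left out, the response of Cyld in embryonic stroma ran from -0.25 to 0.51 (log2), and the difference of the responses from -0.20 to 0.44 for Nfkbib, -1.57 to 0.040 for Nfkbid, -0.20 to 1.24 for Tnfaip3 and -0.17 to 0.59 for Cyld. Without embryonic culture 3 and with the block it was -0.30 for Nfkbib and -0.19 for Tnfaip3. The stage difference with PBS ran from -0.11 to 0.10 for Nfkbib, -0.32 to 0.065 for Nfkbiz and -0.76 to 0.63 for Tnfaip3. With LPS it ran from -0.24 to 0.74 for Nfkbia, -0.20 to 0.45 for Nfkbib, -0.31 to 0.38 for Nfkbie, -0.54 to 0.95 for Bcl3 and -0.37 to 0.30 for Cyld.

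Replicate numbers did not pair the stages (correlations of -0.224 to -0.0890 with PBS and -0.306 to -0.0022 with LPS), and the block left 0 members called there. Nfkbid was the member with the lowest level and so the one with the fewest reads behind its values.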
